A study of Mus musculus with 9 samples.

Results

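Methylation of cytosine in CpG dinucleotides was compared between mouse tail-tip fibroblasts and embryos made from such cells by nuclear transfer, in the 4 samples with the strain label X1 out of 9 samples in the series. The samples were taken by their labels alone: fibroblast samples 3 and 4 (label TT) and nuclear transfer embryo samples 3 and 4 (label NTZy14, here NT embryos). The fibroblasts came from tail tips of adult males, were passaged and grown to confluence in medium with 10% FBS, and served as nuclear donors. For the NT embryos a fibroblast nucleus was placed in an enucleated C57/B6 oocyte under cytochalasin B, the oocyte was activated with strontium chloride and cultured in KSOM, the polar body was taken off by biopsy, and the zona was removed with acidic Tyrode's solution. The sources used here do not give what cross or line X1 is, what the digits in NTZy14 mean, the age of the donors or the number of embryos in a sample. Whether the samples of a group are separate animals or cultures is not stated, and a p-value here reflects only how far these samples spread, which may be technical. The labelled cell types could not be checked by expression, since only methylation was measured, and any other cells carried along with the embryos cannot be told apart from them in such bulk libraries.

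DNA methylation at promoters is a mark of silent genes, and it is copied at each division by DNMT1 together with UHRF1, laid down by DNMT3A and DNMT3B, and oxidised by the TET enzymes. In somatic cells most CpGs outside CpG islands are methylated, while CpG island promoters are not, apart from a small set that includes genes used only in germ cells and one parental copy at imprinted loci. After fertilization most paternal and maternal methylation is lost before implantation, and in nuclear transfer a somatic pattern enters the same egg cytoplasm. The question is how the methylation of a donor cell compares with that of the embryo made from such a cell.

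Methylation was read by reduced representation bisulfite sequencing, in which the enzyme MspI cuts DNA at CCGG, so that CpG-rich fragments are favoured, and bisulfite turns unmethylated cytosine into a base read as thymine. A call is 1 read of 1 CpG, and a level is the percentage of calls that were methylated. The fibroblast samples held 35442175 and 37006952 calls and the NT samples 27192969 and 25239364. CpGs were joined in tiles of 100 bp, and 321033 tiles with at least 10 calls in each of the 4 samples were compared, of which 15304 lie on X. The median tile held 53 and 54 calls in fibroblasts and 43 and 34 in NT embryos, so single levels were the less precise in NT embryos. The sources name no molecular identifiers, so calls are not molecules, and the intervals and limits given for single samples cover counting error only.

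The promoters on which the account of genes rests are shown first, as the 250 bases before the start of the transcript, 5′ to 3′ on the strand of the gene. Hormad1, Mael and Ddx4 are germline genes that were methylated in fibroblasts and then differed among themselves, the promoter of Clcn4 had the smallest adjusted p under an alternative setting, and that of Tubb4a was nearly unmethylated in fibroblasts and at intermediate levels in NT embryos. Capitals mark CpGs with calls in all 4 samples. The letters are from RefSeq (GRCm38.p6), and the positions are those of the deposited files on mm9, found by matching the spacing of CpGs: chr3:95363348-95363597 on the plus strand for Hormad1, chr1:168168875-168169124 on the minus strand for Mael, chr13:113442518-113442767 on the minus strand for Ddx4, chr7:7252268-7252517 on the minus strand for Clcn4 and chr17:57227023-57227272 on the minus strand for Tubb4a.
Hormad1: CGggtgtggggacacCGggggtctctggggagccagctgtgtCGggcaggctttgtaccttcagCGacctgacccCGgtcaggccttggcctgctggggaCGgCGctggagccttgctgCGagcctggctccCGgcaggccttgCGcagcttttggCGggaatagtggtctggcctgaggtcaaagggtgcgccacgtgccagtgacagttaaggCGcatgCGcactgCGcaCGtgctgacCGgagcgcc
Mael: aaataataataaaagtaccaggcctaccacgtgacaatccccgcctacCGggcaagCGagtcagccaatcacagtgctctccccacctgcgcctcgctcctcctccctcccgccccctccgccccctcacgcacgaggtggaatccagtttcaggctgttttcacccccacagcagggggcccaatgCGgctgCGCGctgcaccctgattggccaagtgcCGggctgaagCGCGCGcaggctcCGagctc
Ddx4: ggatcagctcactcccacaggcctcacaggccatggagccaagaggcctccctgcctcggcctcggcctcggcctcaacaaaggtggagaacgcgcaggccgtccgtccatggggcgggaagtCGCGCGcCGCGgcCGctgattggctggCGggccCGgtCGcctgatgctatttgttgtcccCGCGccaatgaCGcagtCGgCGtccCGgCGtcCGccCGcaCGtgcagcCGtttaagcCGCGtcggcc
Clcn4: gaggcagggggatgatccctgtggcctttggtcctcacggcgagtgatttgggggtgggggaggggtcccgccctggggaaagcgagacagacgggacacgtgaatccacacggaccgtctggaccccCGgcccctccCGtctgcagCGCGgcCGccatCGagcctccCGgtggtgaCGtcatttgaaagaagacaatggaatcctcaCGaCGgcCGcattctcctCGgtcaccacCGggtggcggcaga
Tubb4a: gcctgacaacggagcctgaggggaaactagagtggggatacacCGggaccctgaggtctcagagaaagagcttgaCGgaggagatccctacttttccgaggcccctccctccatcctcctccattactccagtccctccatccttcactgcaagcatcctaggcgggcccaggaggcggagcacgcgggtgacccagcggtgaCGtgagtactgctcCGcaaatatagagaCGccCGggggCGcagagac

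Methylation was lower in NT embryos, and fewer tiles stood at 80% or more. Over the tested tiles the mean level was 52.97% and 52.01% in the fibroblast samples and 47.8% and 45.5% in the NT samples, a difference of -5.84 points between groups that did not overlap. With 2 samples against 2 there are 6 assignments, and the smallest p of an exact two-sided permutation test is 0.333, which the difference gave. Tiles at 80% or more made up 42.0% and 39.5% of all tiles in fibroblasts and 30.9% and 28.2% in NT embryos. Tiles from 60 to 80% made up 15.3% ± 1.03 of the fibroblast tiles and 19.2% ± 0.146 of the NT tiles (SD, n = 2 each), and those from 20 to 60% made up 10.3% ± 0.0705 and 13.3% ± 0.532 (SD, n = 2 each). Tiles under 20% made up 33.1% and 34.1% in fibroblasts against 36.8% and 39.0% in NT embryos. For each class both NT samples lay on one side of both fibroblast samples. At the very top the order was the opposite: tiles from 95 to 100% made up 5.84% and 6.50% in fibroblasts and 7.58% and 7.96% in NT embryos. Tiles held fewer calls in NT embryos, and the part of depth in the shares at either end was not tested.

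**Figure D1:**
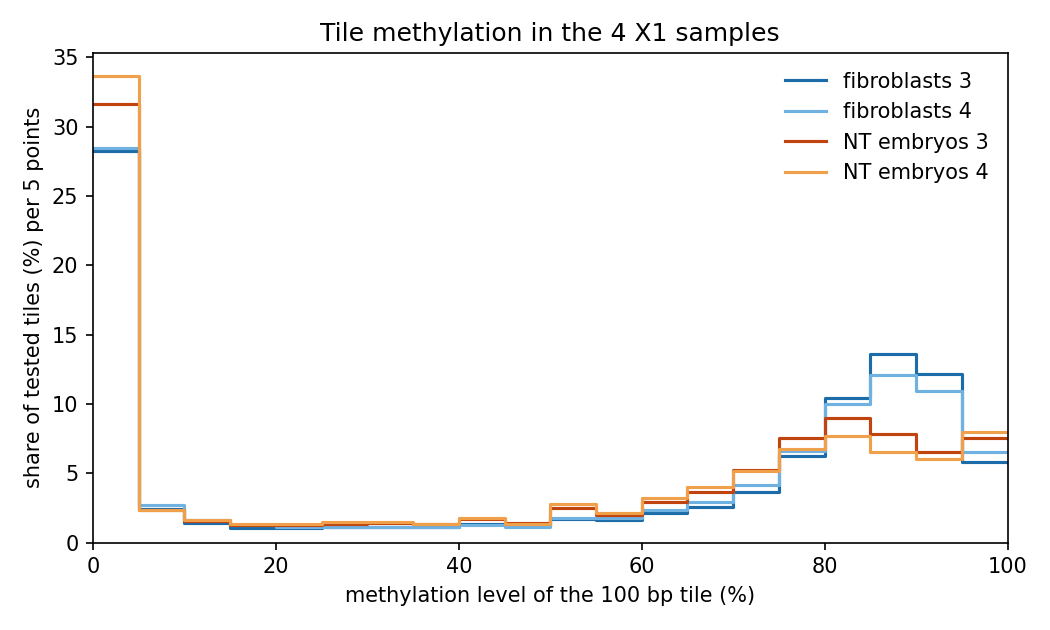
Share of the tested 100 bp tiles (y axis, % per 5 points of level) by methylation level (x axis, %) in each of the 4 samples. The fibroblast lines stand above the NT lines from 80 to 95% and below them from 95 to 100%, while the NT lines are higher below 5%, at 31.6% and 33.7% of tiles against 28.2% and 28.4%.

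Single CpGs differed in the same direction by less. Over 567258 CpGs with at least 10 calls in each of the 4 samples the mean level was 34.9% and 34.4% in fibroblasts and 32.1% and 30.8% in NT embryos, a difference of -3.22 points (two-sided exact permutation test, p = 0.333). The share of CpGs at 80% or more was 27.2% ± 1.03 for the fibroblasts and 21.9% ± 1.02 for the NT embryos (SD, n = 2 each). CpGs with no methylated call made up 43.1% in the fibroblast mean and 53.1% in the NT mean, and CpGs with only methylated calls 2.71% and 5.48%. Exact 0 and 100% depend on the number of calls, which was lower in NT embryos, and the part of depth in these shares was not tested.

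The difference in points was larger in tiles that started at 40% or more than in those that started lower. Tiles near 0 have little room to fall, so part of this contrast is set by the starting level. To keep the choice of tiles apart from the measured change, tiles were placed in classes by one fibroblast sample and the change was taken against the other, both ways round. Tiles that started at 80 to 100% changed by -8.65 points in NT sample 3 and -11.5 points in NT sample 4. Tiles that started at 60 to 80% changed by -7.47 and -10.9 points, and those at 40 to 60% by -3.83 and -8.09 points. From 20 to 40% the samples disagreed in sign, at 1.58 and -2.20 points, and tiles under 20% moved by 0.343 and -0.102 points. By comparison, the fibroblast sample used for the change itself differed from the one that placed the tiles by -2.39 points in the top class and 0.721 points in the bottom one.

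**Figure D2:**
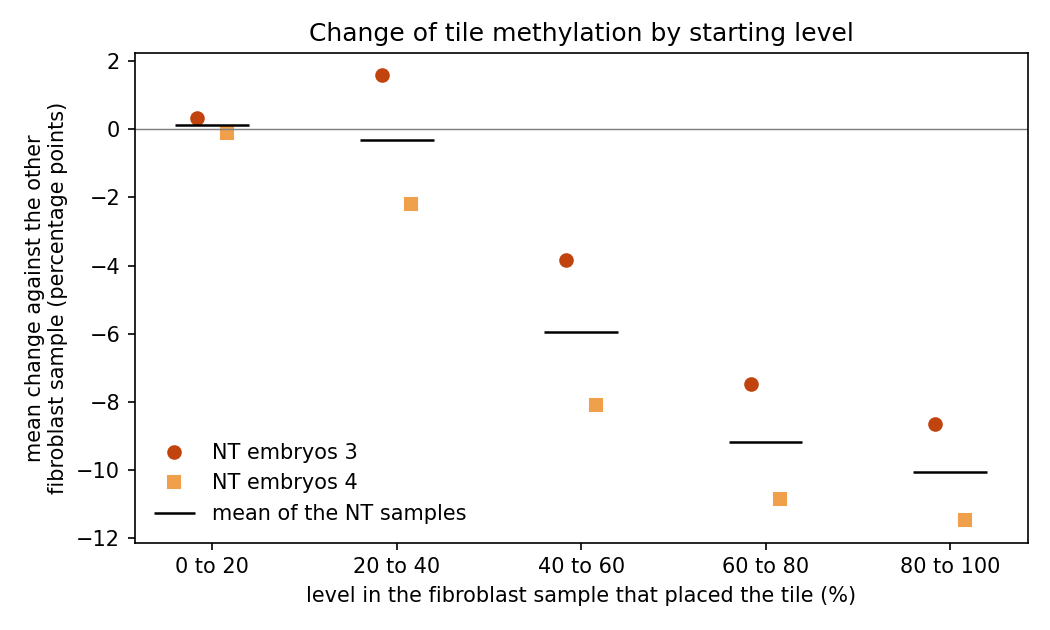
Mean change of tile methylation (y axis, percentage points) by the class of level in the fibroblast sample that placed the tile (x axis, %), for NT samples 3 and 4 (points) and their mean (bars). The change runs from 0.12 points in the lowest class to -10.1 in the highest, and NT sample 4 is the lower point in each class.

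Most methylated tiles were still methylated in NT embryos, and few were near 0. Of 108642 tiles at 80% or more in both fibroblast samples, 60.9% were still at 80% or more in NT sample 3 and 55.2% in NT sample 4. Their median level was 83.3% and 81.5%. Only 2540 of them lay under 20% in NT sample 3 and 4432 in NT sample 4, and 714 in both. Of 103645 tiles under 20% in both fibroblast samples, 94.8% stayed under 20% in both NT samples, and 60 reached 60% or more in both. Tiles from 20 to 60% in both fibroblast samples spread to either side: 28.4% and 35.0% of these 21316 tiles lay under 20% in NT samples 3 and 4, and 5869 and 5116 of them lay at 60% or more.

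The NT samples differed from each other more than the fibroblast samples did. Among tiles with a group mean from 10 to 90%, the median SD between the 2 samples was 5.23 points for the fibroblasts and 9.32 for the NT embryos. The root mean square SD was 8.98 points in fibroblasts, where the numbers of calls alone give 6.67, and 20.7 points in NT embryos, where they give 7.58. Samples 3 and 4 lay 40 points or more apart in 0.421% of all tested tiles in fibroblasts and in 8.77% in NT embryos. Across all tested tiles, levels correlated at r = 0.968 between fibroblast samples and 0.831 between NT samples, and at 0.829 to 0.872 between a fibroblast and an NT sample. These coefficients are across tiles of 4 libraries, which share their MspI fragments, and describe them only.

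A large deficit in one NT sample was found again in part in the other. NT sample 3 lay 40 points or more below fibroblast sample 3 in 18547 tiles, and in those tiles NT sample 4 differed from fibroblast sample 4 by a median of -29.6 points, with 39.9% of tiles down by 40 points or more. Over all 181815 tiles at 60% or more in fibroblast sample 3, the median was -5.88 points and 11.4% of tiles were down that far. Chosen the other way, the 25588 tiles that were 40 points or more lower in NT embryos by the samples numbered 4 differed by a median of -22.2 points in the samples numbered 3, with 28.9% down by 40 or more against 8.47% of all tiles at 60% or more. The 4363 tiles that were higher by 40 points or more in the samples numbered 3 were higher by a median of 15.3 points in the samples numbered 4. The quartiles of the change in the other pair were -56.0 and -0.923 points in the first direction, so the tiles beyond the upper quartile were less than 1 point lower, or higher, there.

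No single tile passed the test. A logistic model with quasi-binomial spread was fitted to the calls of each tile, limma moderated the dispersion across tiles, and a tile was called when the Benjamini-Hochberg adjusted p was under 0.05 and the means lay at least 20 points apart. This called 0 of 321033 tiles (0%), with a smallest adjusted p of 0.559, and 27926 tiles (8.70%) had an unadjusted p under 0.05, of which 21784 were lower and 6142 higher in NT embryos. Limma's own test of the arcsine square root of the levels called 0 too, with a smallest adjusted p of 0.0731 and 54101 tiles at an unadjusted p under 0.05. On simulated data this fit called no tile that had been made to differ, so the count of 0 does not show that tiles were alike. Without a test, both NT samples lay below both fibroblast samples in 98179 tiles (30.6%) and above in 33701 (10.5%). A gap of at least 20 points between the groups was found in 19350 tiles (6.03%) in the lower direction and 4105 (1.28%) in the higher. At a gap of at least 40 points the numbers were 6067 (1.89%) and 865 (0.269%), and at 60 points 1648 (0.513%) and 135 (0.0421%).

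Among tiles, calls were made in those of 1000 bp under a setting chosen after the data were seen. With calls summed over 1000 bp and the dispersion prior taken from tiles between 5 and 95%, 4183 of 153143 tiles (2.73%) were called lower and 332 (0.217%) higher. Tiles outside these levels were left out of the test, so the adjustment ran over fewer tiles than the 178581 of the planned fit. The quasi-binomial fit with the replicate number as a block called 0 of these tiles, with a smallest adjusted p of 0.285. Without fibroblast sample 3 or without fibroblast sample 4 the count was 0 as well, and without NT sample 3 or NT sample 4 it was 20892 and 16807. The count therefore moved with the group that lost a library. With 1 NT sample left, the fit takes its spread from the fibroblast samples alone, which differed less from each other. On simulated data, the prior from tiles between 5 and 95% called 31 of 200 tiles of 1000 bp lowered by 60 points. It called 10 of 200 lowered by 40 points and 1 of 200 lowered by 20, with 6 unchanged tiles called as well. The simulation gave both groups the same spread, whereas the NT samples spread more than the fibroblast samples. These rates therefore need not hold for the real tiles.

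The tiles with the largest deficits in NT embryos stood at nearly full methylation in fibroblasts and at almost none in NT embryos. The 10 named by rule (uncalled, with an unadjusted p under 0.05 and groups that do not overlap) lay at 93.8 to 100% in the fibroblast samples and at 0 to 2.56% in the NT samples, with 24 to 209 calls per sample. A tile at chr10:79750900-79750999, 4.23 kb upstream of the start matched to Rps15, a protein of the small ribosomal subunit, stood at 95.5% and 96.5% in fibroblasts and at 0% in both NT samples, on 48 and 209 calls, which allow a level of up to 6.25% and 1.44%. A tile at chr19:5287100-5287199, 8.30 kb from the start matched to Sf3b2, a splicing factor subunit, stood at 97.4% and 100% in fibroblasts and at 0% in both NT samples, on 64 and 35 calls, which allow up to 4.69% and 8.57%. Another, at chr12:103685800-103685899 and 7.91 kb upstream of the start matched to Lgmn, a lysosomal protease, stood at 98.0% and 94.6% against 0% and 2.56%. Only matched starts were searched, so other genes may lie nearer. None of the 10 passed the adjusted test (adjusted p = 0.559 in the quasi-binomial model with limma's moderation).

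The tiles with the largest excess in NT embryos were partly methylated in fibroblasts. The 10 named tiles stood at 5.71 to 35.9% in the fibroblast samples and at 85.7 to 100% in the NT samples, and fibroblast sample 3 was above fibroblast sample 4 in each. At chr15:89354600-89354699, 0.47 kb upstream of the start matched to Gm15609, levels were 26.2% and 5.71% in fibroblasts and 92.2% and 98.1% in NT embryos. Of 5 tested tiles within 1 kb of it, 3 were also higher by at least 20 points. At chr5:129203100-129203199, with 9 CpGs, levels were 23.4% and 16.9% in fibroblasts and 90% and 96.4% in NT embryos. Both sets of tiles hold uncalled ones only, so their values describe these 4 libraries.

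Promoters were measured in windows from 250 bases before to 50 after the start of a RefSeq transcript. A place in the files was found for 8889 of 32851 promoter sequences, and 8502 promoters of 7566 genes, in 8488 distinct windows, had at least 3 CpGs with calls in all 4 samples and at least 10 calls in each. CpG-rich promoters are favoured by this match. The quasi-binomial model called 0 of 8488 windows (0%), with a smallest adjusted p of 0.646 and 281 windows at an unadjusted p under 0.05; limma's own test called 0, with 1239 under that unadjusted p. Both NT samples lay below both fibroblast samples in 24.8% of windows and above in 5.89%, and by at least 20 points in 25 windows (0.295%) and 4 windows (0.0471%). Of 8353 windows under 20% in the fibroblast mean, 8270 were under 20% in both NT samples.

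Methylated promoters were more often lower than higher in NT embryos. Only 57 windows, some of which overlap, were at 60% or more in the fibroblast mean. Their median was 85.8% and 86.0% in the fibroblast samples and 69.1% and 57.4% in the NT samples. Both NT samples lay below both fibroblast samples in 33 of the 57, by at least 20 points in 16, and above in 5. Of these windows 21 were still at 60% or more in both NT samples, and 2 were under 20% in both. Since the windows were chosen as high in fibroblasts, part of the deficit is built into the choice, which the change of tiles by starting level avoids.

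Promoters of germline genes stood on either side. Of 14 listed genes 6 were measured, and each was methylated in fibroblasts, with group means from 79.1 to 98.0%. Both NT samples lay below both fibroblast samples in 2 of the 6 and above in 2, against 24.8% and 5.89% of all windows, most of which were unmethylated in fibroblasts. Their median change was -3.99 points, against -0.228 over all windows and -20.02 over the 57 methylated ones, and the difference between the germline and the other methylated windows was not tested. None passed the adjusted test in the quasi-binomial model with limma's moderation. An unadjusted p under 0.05 was found in 3.31% of all windows, in 18 of the 57 methylated ones and in 1 of the 6 germline genes. That one was Hormad1, which encodes a protein of the meiotic chromosome axis: over 16 CpGs its level was 88.6% and 86.0% in fibroblasts and 63.6% and 61.5% in NT embryos, on 161 to 356 calls. The groups did not overlap, and the 95% Wilson intervals ran from 82.0 to 91.7% over the fibroblast samples and from 53.8 to 70.6% over the NT samples. Tex101, a germ cell surface protein, stood at 90.9% and 92.7% in fibroblasts and 80.9% and 35.6% in NT embryos, so the NT samples were far apart.

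Ddx4, the germ cell RNA helicase also called Vasa, was higher in both NT samples, but by little in NT sample 4. Its level over 22 CpGs was 81.6% and 76.5% in fibroblasts and 97.5% and 82.5% in NT embryos, with NT sample 4 only 0.860 points above the higher fibroblast sample. Mael, a factor of the piRNA pathway, stood at 87.2% and 88.6% in fibroblasts and 97.8% and 87.3% in NT embryos, and the groups overlapped. Sycp1, a protein of the synaptonemal complex, was at 97.9% and 98.1% in fibroblasts and at 100% in both NT samples, on 12 and 20 calls there. Slc25a31, the testis form of the mitochondrial ADP/ATP carrier, was at 91.3% and 84.5% in fibroblasts and 98.5% and 57.4% in NT embryos. NT sample 3 was above NT sample 4 in each of Tex101, Slc25a31, Mael and Ddx4.

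Letters shared by these promoters were looked for in the 300 base windows on both strands. The palindrome CACGTG, the E-box, was in 5 of the 6 germline genes (Ddx4, Hormad1, Mael, Slc25a31 and Sycp1), against 916 of 8502 measured promoters (10.8%) and 13 of the 57 methylated ones (22.8%). The letters GCGGGA, which do not overlap with it, were in the same 5 genes, against 46.7% of measured promoters and 28.1% of methylated ones. A match describes the letters of the window only.

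Other promoters with a gap between the groups were named after their values were seen. Zglp1, a zinc finger factor of the germ line, stood at 75.7% and 61.0% in fibroblasts and at 1.79% and 0% in NT embryos, on 56 and 69 calls, the latter allowing up to 4.35%. Hormad2, a relative of Hormad1 in meiosis, stood at 48.1% and 57.9% in fibroblasts and at 3.70% and 7.35% in NT embryos. Both genes were under 10% in each NT sample. The window shared by Btbd18, a factor of piRNA transcription, and the neighbouring Ctnnd1 stood at 92.4% and 91.5% in fibroblasts and at 21.4% and 43.8% in NT embryos, on 28 and 32 calls. The windows of Xlr5b and Xlr5a, near-identical relatives on X between which reads may be shared, stood at 89.0% and 92.4% against 21.4% and 13.3%, and at 88.0% and 90.4% against 22.7% and 47.6%, on 14 to 22 calls in the NT samples. Pafah2, a phospholipase that removes oxidised lipid chains, stood at 68.8% and 74.0% against 18.5% and 0%, the last on 13 calls, which allow up to 23.1%.

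Of the 420 windows between 5 and 95%, 3 were called, each lower in NT embryos, when the dispersion prior was taken from such windows, a setting chosen after the data were seen. Clcn4, a chloride and proton exchanger of endosomes, was at 48.4% and 48.5% in fibroblasts and 21.8% and 26.2% in NT embryos, on 908 to 2174 calls (adjusted p = 0.0369). Hoxd12, a HOX factor of distal limb patterning, was at 28.0% and 29.7% against 2.25% and 1.93%, on 222 to 346 calls (adjusted p = 0.0495). Gm33887, a predicted gene, was at 62.8% and 65.6% against 41.5% and 46.9%. In the fit as first designed, over 8488 windows, these 3 had an adjusted p of 0.646. The later fit left out windows outside 5 to 95%. The call therefore rests on the prior and on the smaller number of windows adjusted for. Promoter windows were not simulated, so how often this prior calls unchanged ones is not known.

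Of the 4 windows that were higher by at least 20 points, 1 belongs to a gene of known product. Tubb4a, a beta tubulin of brain, stood at 8.90% and 2.36% in fibroblasts and at 48.8% and 32.8% in NT embryos, on 119 to 508 calls. 1700030C10Rik stood at 30.5% and 21.4% against 65.8% and 74.0%, Gm35510 at 31.5% and 16.2% against 55.8% and 59.2%, and Gm31714 at 27.5% and 23.9% against 51.5% and 47.6%. None of the 4 was called under either prior.

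**Figure D3:**
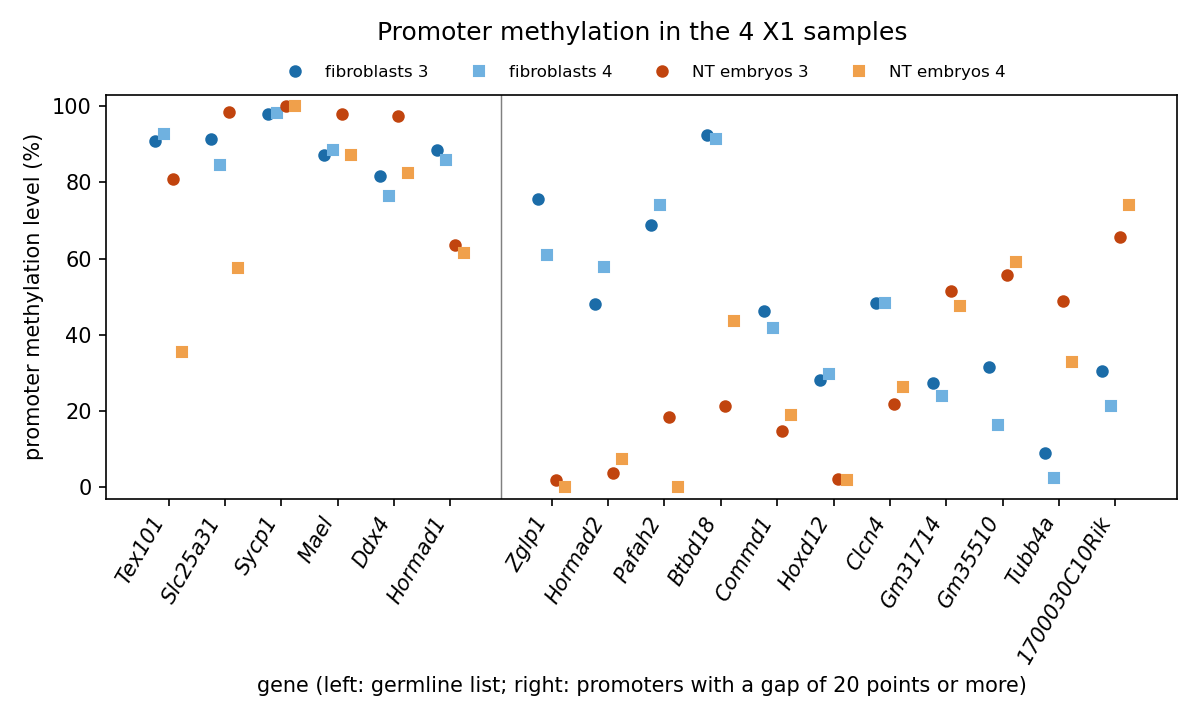
Promoter methylation level (y axis, %) in fibroblast samples 3 and 4 and NT samples 3 and 4 for the 6 measured germline genes (left of the line) and for 11 promoters chosen for a gap of 20 points or more between groups (right). Hormad1 stands at 88.6% and 86.0% in fibroblasts and 63.6% and 61.5% in NT embryos, while Ddx4, Mael and Sycp1 are above 80% in each NT sample.

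Imprinted genes were measured at 6 of 18 listed promoters, in a window that need not be the differentially methylated region. Igf2r, which clears IGF2 from the cell surface, was at 35.1% and 31.5% in fibroblasts and 35.7% and 11.1% in NT embryos, and Plagl1, a zinc finger growth regulator, at 30.9% and 15.8% against 28.0% and 4.38%. In both genes NT sample 4 was the lowest. Zrsr1, an imprinted splicing factor gene in an intron of Commd1, was at 41.7% and 49.3% in fibroblasts and 21.2% and 50.4% in NT embryos, so the groups overlapped. A promoter window matched to Commd1 lay near that of Zrsr1, at chr11:22872816-22873115 against chr11:22871754-22872053 for Zrsr1. This Commd1 window stood at 46.2% and 41.9% in fibroblasts and at 14.7% and 18.9% in NT embryos, on 281 to 366 calls. Igf2, Gnas and Grb10 were under 20% in the 4 samples. Both NT samples were above both fibroblast samples in 2 of the 6 and below in 0, against 5.89% and 24.8% of all windows. The 2 were nearly unmethylated: Igf2, at 0.617% and 0% against 2.40% and 1.55%, and Grb10, at 0.567% and 1.78% against 2.31% and 3.83%. The median change over the 6 was -3.63 points, against -0.228 over all windows. Of the 6, 0 had an unadjusted p under 0.05, against 3.31% of all windows.

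Genes of the methylation machinery had unmethylated promoters throughout. Of 8 listed genes 7 were measured (Dnmt1, Dnmt3a, Dnmt3b, Tet1, Tet2, Tet3 and Uhrf1), and each was under 20% in the 4 samples, with a highest value of 9.96% for Tet1 in NT sample 3. The pluripotency factor Sox2 was the 1 of 12 listed pluripotency genes that was measured, at 1.69% and 3.26% in fibroblasts and 8.68% and 3.72% in NT embryos. Col1a2, a chain of type I collagen and the 1 of 8 fibroblast genes measured, was at 0% in the 4 samples, on 60 to 111 calls. None of these 9 genes had an unadjusted p under 0.05, against 3.31% of all windows.

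Around start sites the groups overlapped near the start and lay apart farther out, where the difference did not grow steadily. Over 8486 matched starts, CpGs within 200 bp upstream stood at 0.928% and 1.26% in fibroblasts and 1.01% and 0.967% in NT embryos, and the groups overlapped. The largest difference downstream was -8.26 points, at 2500 to 3000 bp, and the largest upstream -6.30 points, at 3500 to 4000 bp. From 4500 to 5000 bp upstream, levels were 20.2% and 19.7% in fibroblasts and 15.5% and 13.4% in NT embryos. From 4500 to 5000 bp downstream they were 29.9% and 28.6% against 23.4% and 20.7%. From 800 bp outward on either side both NT samples lay below both fibroblast samples in each distance class.

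**Figure D4:**
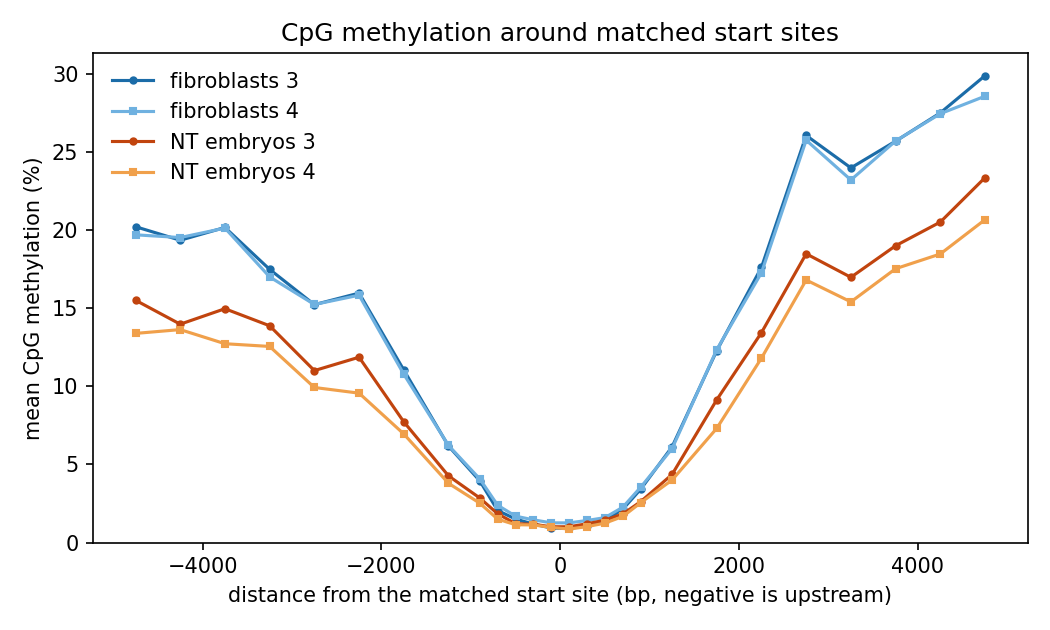
Mean CpG methylation (y axis, %) by distance from 8486 matched start sites (x axis, bp, negative is upstream) in each of the 4 samples. The lines meet near 1% at the start and lie apart farther out, reaching 29.9% and 28.6% in fibroblasts and 23.4% and 20.7% in NT embryos at the downstream edge.

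Among methylated tiles, sparse CpGs differed more than those of moderate density. Methylated tiles are the 180475 tiles at 60% or more in the fibroblast mean, at 84.6% and 83.7% in the fibroblast samples and 75.3% and 72.4% in the NT samples. The CpG density is the authors' deposited value, the mean number of CpGs within 50 bp of the CpGs of a tile. At a density above 2 and up to 3 the difference was -13.6 points. Both NT samples were lower by at least 20 points in 13.5% of these tiles, against 8.48% of all methylated tiles. Above 1 and up to 2 the difference was -11.1 points, above 3 and up to 4 it was -11.5 points, and above 4 and up to 6 and above 6 and up to 8 it was -6.26 and -5.84 points. The 1594 methylated tiles above 8 and up to 12 differed by -9.13 points, and the 35 above 12 by -20.3 points. In each of these classes both NT samples lay below both fibroblast samples, with an exact permutation p of 0.333, and the order of classes was not tested. Since the tiles were chosen as high in fibroblasts, part of each deficit is built into the choice.

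Of the 20 chromosomes measured, X, of which male cells hold a single copy, differed the least. Methylated tiles of X stood at 85.2% and 84.7% in fibroblasts and 80.6% and 78.8% in NT embryos, a difference of -5.26 points, against -10.7 points on autosomes. X was above the autosomes by 0.638 and 1.03 points in fibroblasts and by 5.63 and 6.91 points in NT embryos. Autosomal tiles were then weighted to the CpG density and starting level of X tiles. X then exceeded autosomes by -0.179 and 0.0939 points in fibroblasts, where the weighting itself keeps the values small. In NT embryos X exceeded autosomes by 4.26 and 5.36 points (exact permutation p = 0.333 between the groups, the smallest possible). Among autosomes the difference ran from -8.35 points on chromosome 3 to -14.7 on chromosome 19 and -15.5 on chromosome 11. Both NT samples were lower by at least 20 points in 1.94% of methylated tiles on X and in 15.1% on chromosome 11. Over all methylated tiles this share was 8.48%. These tiles too were chosen as high in fibroblasts, which is part of each deficit.

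**Figure D5:**
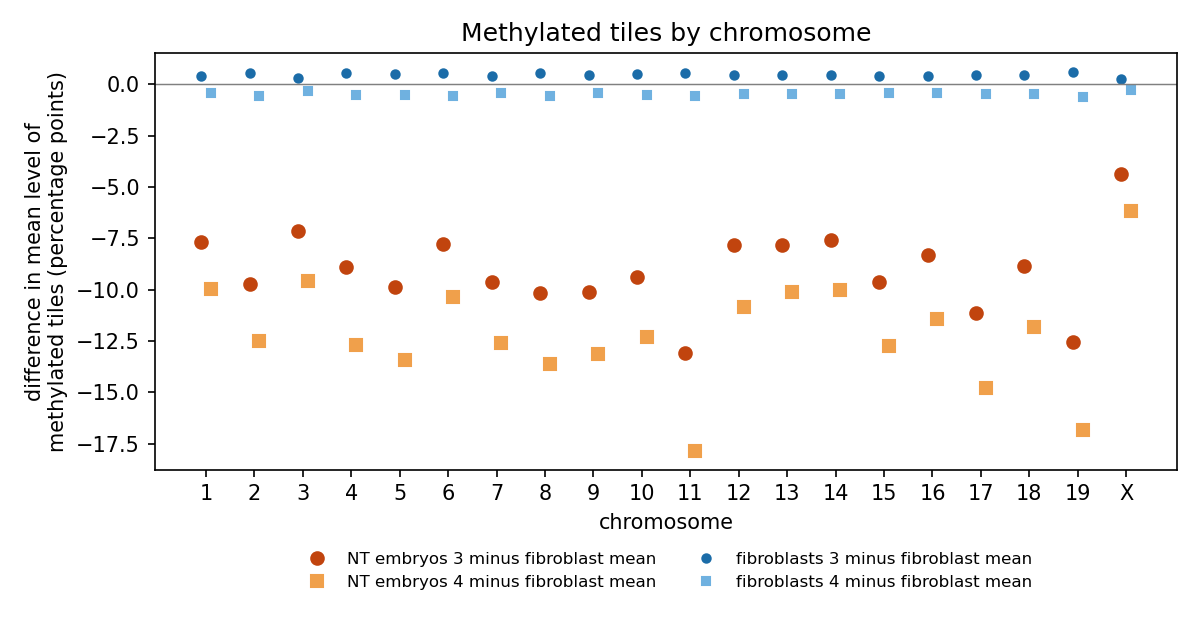
Difference of each sample from the fibroblast mean (y axis, percentage points) in the mean level of methylated tiles, by chromosome (x axis). The NT samples lie below 0 on each chromosome, with group differences from -5.26 points on X to -15.5 on chromosome 11, while the fibroblast samples stay within 1 point of their mean.

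Neighbouring tiles tended to differ together. The change in the samples numbered 3 at one methylated tile correlated with the change in the samples numbered 4 at the same tile at r = 0.290 over 180475 tiles. With a second tile 1000 bp away it was 0.274 over 4434 pairs of tiles, and at 50000 bp it was 0.140 over 1364. The points are tiles of 4 libraries and are not independent, and tiles chosen as high in the fibroblast mean share that choice, so these are descriptions.

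Groups of CpGs with the same spacing differed in unlike amounts. Windows of 5 consecutive CpGs were grouped by their 4 gaps, and the 10 most frequent patterns were measured; several overlap each other. The 10791 CpGs in windows with gaps of 7, 5, 4 and 29 bp stood at 89.5% and 89.1% in fibroblasts and 89.7% and 90.6% in NT embryos. Those with gaps of 12, 21, 4 and 13 bp, 2264 CpGs, stood at 92.95% and 92.7% in fibroblasts and 89.8% and 84.8% in NT embryos. Gaps of 3, 7, 13 and 4 bp and of 7, 3, 82 and 25 bp gave differences of -5.21 and -5.51 points. The pattern with 4 gaps of 3 bp was near 1% in each sample. Whether these groups are copies of repeated elements was not tested, and how reads that match several places were handled is not given in the sources used here.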

How the data were processed

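Mouse X1 libraries from reduced representation bisulfite sequencing were used, 2 of fibroblasts and 2 of NT embryos. For each, the authors deposited per CpG the count of calls and the count of methylated calls, on mm9 per the submitters' processing notes. Aligner and caller: not given in the sources used here. The authors' deposited table of tile methylation as a fraction from 0 to 1 served as a check: 99.7% or more of its tiles lay within 0.001 of levels recomputed from CpGs with at least 5 calls. Its CpG density, a deposited score, was used to class tiles; its 22 other columns were not used.

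Levels are methylated calls over calls. Tiles of 100 bp with at least 10 calls in each sample were fitted as described, with limma 3.58.1 in R 4.3.3. The dispersion was kept at 1 or above. On simulated data this fit called none of the tiles made to differ, so a count of 0 does not show that tiles did not differ. The prior from tiles between 5 and 95%, with other tiles left out of the test, called 52 of 200 tiles lowered by 60 points. It called 13 of 200 lowered by 40 points and 1 of 200 lowered by 20, with 37 unchanged tiles called as well. The simulated spread was the same in all tiles and both groups, unlike in the data, so these rates need not carry over. Other steps used Python 3.11.15, numpy 2.4.6, pandas 2.3.3 and scipy 1.17.1. Named tiles are the 10 largest falls and rises with at least 3 CpGs and 20 calls in each sample, filled from uncalled tiles with an unadjusted p under 0.05 and no overlap. Alternatives in coverage, tile size, minimum difference, model, block, chromosomes and left-out samples were run. The comparison and gene lists were chosen with earlier results of these data known. Naming genes was planned only with an mm9 annotation; in its absence RefSeq promoter sequences (GRCm38.p6) were placed by CpG spacing, with at least 7 covered CpGs and 1 best place genome-wide, a step added after the data were seen. Of 8933 such places 99.6% lay on the chromosome RefSeq gives. Positions are numbered as in the files. Sample numbers were not shown to pair samples: deviations from the group means correlated at 0.0114 across 321033 tiles.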

Additional observations from a re-analysis of the deposited data

How the results depend on the processing

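The lower methylation of NT embryos kept its direction in the alternatives run. At minima of 5 and 20 calls the difference in mean CpG level was -3.96 and -2.86 points; leaving out each sample in turn gave -2.56 to -3.88 points, weighting by calls -4.48 and autosomes alone -3.24. For tiles at 80% or more, the difference in share was -9.84 to -12.6 points without single samples, and for methylated tiles the fall was -8.83 to -11.8 points. The excess of X over autosomes in NT embryos relative to fibroblasts was 4.79 to 6.08 points. With the replicate block, the mean CpG difference of -3.22 points gave p = 0.5 in an exact sign-flip test over 2 pairs, the smallest it allows, and the block called 0 of 321033 tiles of 100 bp (smallest adjusted p 0.782, 9661 at an unadjusted p under 0.05), 0 of the 1000 bp tiles and 0 promoter windows.

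Tiles of 100 bp gave 0 calls in each alternative, with unadjusted p under 0.05 in 3656 to 54101 of the tiles. In planned 1000 bp tiles it was 0 as well. With the prior from tiles between 5 and 95%, added after the data were seen, 1000 bp tiles gave 4515 calls, 3433 at 40 points, 3529 at 20 calls, 4463 on autosomes, 0 with limma, and 0 to 20892 when 1 sample was left out (0 without either fibroblast sample, 16807 without NT sample 4). That prior gave 3 promoter calls, among the 420 windows to which its test was limited. Of 220 values of named tiles under alternatives, none was reversed, but this was largely fixed by the choice of tiles. They were chosen for groups that do not overlap, so leaving out a sample cannot reverse them. A change of model leaves the difference itself as it was. In fits of all 4 samples none of the named tiles was called. A sample left alone in its group is assumed to vary like the other group. The median tested tile held 43 and 34 calls in the NT samples, and the spread between these samples, a root mean square SD of 20.7 points, was above the 7.58 points that the number of calls gives.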

Other observations

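A few CpGs on chromosome 2 took up a large part of the NT libraries. At 4 positions from 22444218 to 22444380, as the files number them, NT samples 3 and 4 held 642441 and 619903 calls at the deepest position, where fibroblast samples 3 and 4 held 3828 and 4086. Each of these 4 positions was nearly unmethylated, at 0.629 to 2.08% in all 4 samples. At 3 other positions, from 98506418 to 98506659, each sample held at least 59455 calls, at 84.7 to 93.6% methylation. CpGs with 10000 calls or more held 6.85% and 6.75% of all calls in the NT samples and 1.44% and 1.63% in the fibroblast samples. These positions were chosen after their values were seen. Of all calls, 40.7% and 39.5% were methylated in fibroblasts and 35.3% and 27.6% in NT embryos, and without such CpGs 39.99% and 38.7% against 36.1% and 27.9%.

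Other promoters of high fibroblast level were above 80% in both NT samples. Gm6566 stood at 94.7% and 93.9% in fibroblasts and 89.4% and 99.5% in NT embryos, Gm38744 at 90.2% and 91.7% against 96.6% and 97.0%, and Gm52531 at 90.6% and 95.6% against 98.3% and 97.5%. These are predicted genes, named for their level and not by a rule fixed earlier. A testis transcript, 4933414I15Rik, stood at 76.5% and 64.8% in fibroblasts and 98.5% and 91.2% in NT embryos.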
